A study of Mus musculus with 10 samples.

Results

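Toll-like receptors were followed through the sorted subsets of a mouse acute promyelocytic leukaemia (APL), as 10 genes: the receptors Tlr1, Tlr2, Tlr4, Tlr6, Tlr7, Tlr8 and Tlr13, the co-receptors Cd14 and Ly96, and the adaptor Myd88. The genes were taken as a named list, and each was read from the probe sets that carry its symbol alone, 15 probe sets in all of 45037 on the array. Where a gene had several probe sets, the one with the highest mean over the 10 arrays stood for it. All of the 10 genes entered the test, among 14521 genes tested. Tlr8 did so by exceeding the dim-signal level (the 40th percentile of an array) on just 2 arrays, 1 each from the groups where it was highest.

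The leukaemic cells came from PML-RARα transgenic mice of the FVB N/J background, labelled as 8 to 10 weeks old. They carried GFP from a retrovirus and were expanded in syngeneic recipients, so every group shares the transgene, the label and the transplantation. GFP-positive marrow cells were sorted into subsets named SC, PD and TD, names that the labels do not spell out, and the same sort after all-trans retinoic acid (ATRA) gave RAPD and RATD. ATRA, a ligand of RARα, was given at 10 mg/kg, for 5 days by the treatment protocol and for 3 to 5 days by the source names. The promoter of the transgene and any pooling of animals are not given in the sources used here. Each of the 5 groups has 2 arrays, labelled as biological replicates, and values are log2 MAS5 signals, so a difference of 1 is a doubling.

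Toll-like receptors are sensors of microbial molecules on and in cells of the innate immune system. Tlr2 pairs with Tlr1 or Tlr6 at the cell surface to bind bacterial lipopeptides. Tlr4 binds lipopolysaccharide (LPS) together with Ly96 (MD-2), after Cd14 has passed the LPS on. Tlr7 and Tlr8 respond to single-stranded RNA, and Tlr13, a receptor of mice, to bacterial ribosomal RNA, all from within endosomes. All of these receptors signal through Myd88 to NF-κB and to interferon regulatory factors, and monocytes, macrophages and neutrophils are rich in them.

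The arrays differed in ways that the groups alone do not describe. Replicate arrays of a group differed with an SD of 0.158 in SC, 0.256 in TD and 0.305 in PD, but of 0.467 in RATD and 0.503 in RAPD, over the 6329 genes whose log2 signal averaged 9 or more. The fit takes 1 spread for all groups, so errors of contrasts with the ATRA groups may be too small. The primary granule genes Mpo, Elane, Prtn3 and Ctsg and the progenitor gene Kit, 5 markers of promyelocytes, exceeded the dim-signal level on all 10 arrays, with Mpo between 13.81 ± 0.68 (SD, n = 2) in RATD and 15.30 ± 0.04 in PD. Of these 5, 4 were called lower in TD than in PD, 3 lower in TD than in SC and 3 lower in RATD than in RAPD, and their part in the differences below was not tested. Of the 6 B cell markers on the list 5 were on the array, and Cd79a was dim on every array, while Pax5 exceeded the dim-signal level on 5 arrays, Cd79b on 4, Ms4a1 on 3 and Ebf1 on 2. Of the 4 that were tested, 1 was called lower in TD than in PD. Of the 6 erythroid markers 4 were on the array, and their summed linear signal stayed between 43 and 245. The 6 dendritic markers summed to 124 to 153 in SC, 250 to 260 in PD and 515 to 534 in TD. Of the 4 tested, 2 were called higher in TD than in SC and 1 higher than in PD. T and NK cell markers summed to 189 to 210 in SC and 332 to 912 in RATD, with 0 called. Mast cell and basophil markers summed to 3512 to 3644 in SC and 879 to 1325 in TD, with 1 called lower. The part of these lists was not tested.

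Markers of monocytes and macrophages moved with the subsets. The summed linear signal of the 12 of 13 listed markers on the array was 4162 to 4317 in SC, 5194 to 6213 in PD and 40061 to 48643 in TD. It was 3269 to 4740 in RAPD and 16912 to 36180 in RATD. Of the 12, 10 were called higher in TD than in PD, 9 higher in TD than in SC and 9 higher in RATD than in RAPD. In RAPD against PD 1 was called higher and 2 lower, and in RATD against TD 0 higher and 1 lower. Late granulocyte markers, 7 of 9 on the array, summed to 36576 to 39596 in SC, 82013 to 89935 in PD and 56206 to 79092 in TD, and 5 of the 7 were called higher in PD than in SC and 5 higher in TD than in SC. The part of both lists in the differences below was not tested, and in sorted bulk samples fewer cells of a type and less RNA per cell cannot be told apart.

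**Figure D1:**
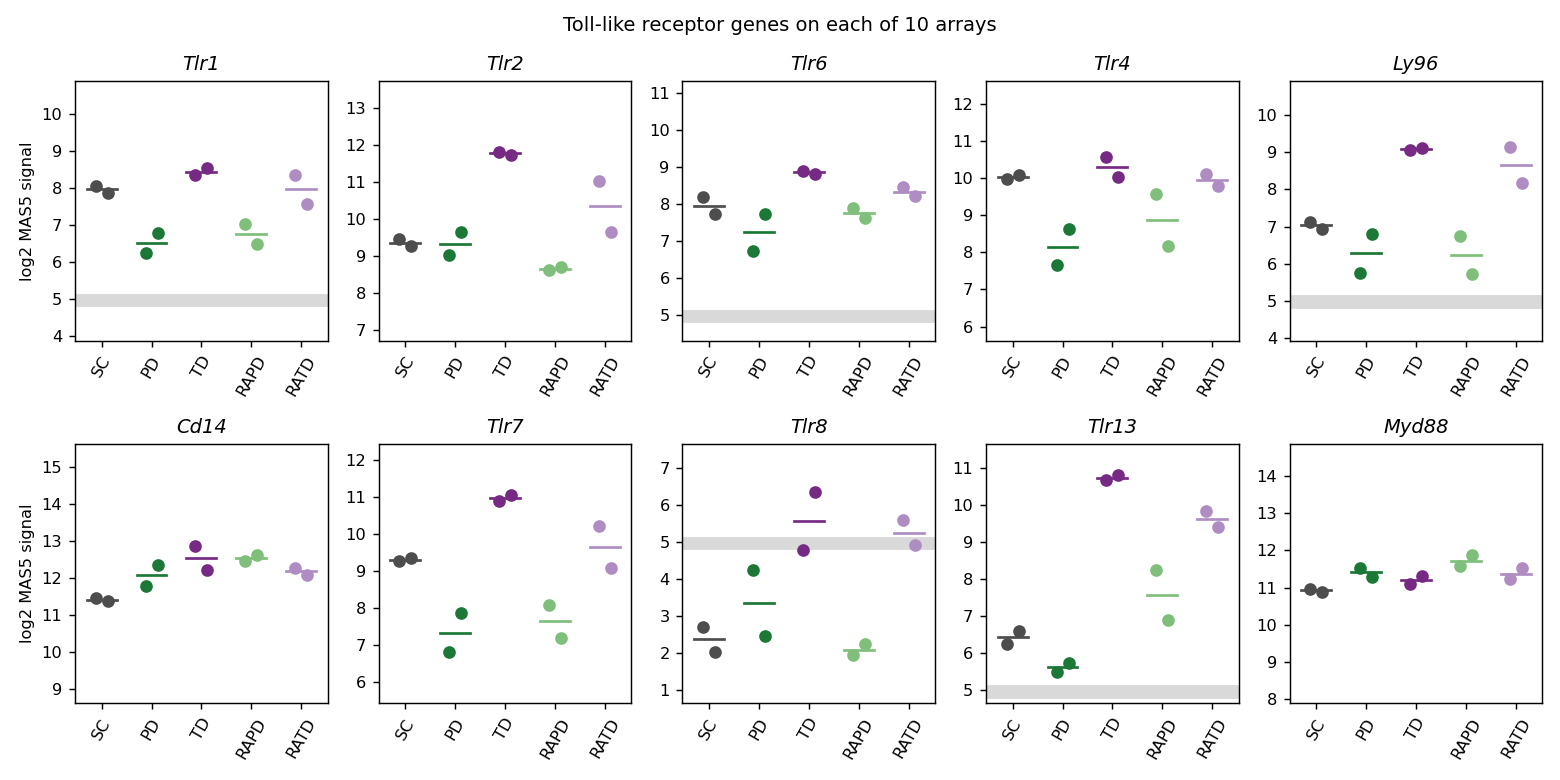
Log2 MAS5 signal (y) of the 10 genes in the 5 groups (x). Each point is 1 array, each bar the mean of the 2 arrays, and the grey band spans the dim-signal levels of the 10 arrays. Every panel covers the same log2 range. TD is the highest group for the receptors and Ly96, while Cd14 and Myd88 lie within a narrow range.

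The promoters of 3 genes are shown because their genes behaved most differently: Tlr13 had the largest difference between subsets, Tlr2 overlapping levels in SC and PD and a higher one in TD, and Myd88 varied little. The 250 bases before the start site come from RefSeq (GRCm38.p6), where 6 of the 10 genes have an entry: Tlr1, Tlr2, Tlr6, Tlr8, Tlr13 and Myd88. Tlr13 lies at chrX:106143025-106143274 on the plus strand, Tlr2 at chr3:83841609-83841858 on the minus strand and Myd88 at chr9:119340019-119340268 on the minus strand. Capitals mark matches to 6 motifs searched on both strands: PU.1 (GAGGAAG), C/EBP (TTGCNNAA), AP-1 (TGANTCA), IRF and κB (both searched by consensus) and the RAR half-site (AGGTCA).
Tlr13: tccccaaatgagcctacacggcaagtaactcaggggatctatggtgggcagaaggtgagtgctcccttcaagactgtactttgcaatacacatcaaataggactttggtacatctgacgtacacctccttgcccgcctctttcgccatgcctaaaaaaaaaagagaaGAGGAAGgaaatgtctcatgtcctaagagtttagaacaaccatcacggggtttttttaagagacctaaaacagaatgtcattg
Tlr2: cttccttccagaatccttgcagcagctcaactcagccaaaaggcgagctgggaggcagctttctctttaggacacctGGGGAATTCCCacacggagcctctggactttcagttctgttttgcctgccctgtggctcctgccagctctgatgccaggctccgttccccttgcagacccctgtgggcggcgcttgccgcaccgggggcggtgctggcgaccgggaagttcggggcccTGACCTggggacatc
Myd88: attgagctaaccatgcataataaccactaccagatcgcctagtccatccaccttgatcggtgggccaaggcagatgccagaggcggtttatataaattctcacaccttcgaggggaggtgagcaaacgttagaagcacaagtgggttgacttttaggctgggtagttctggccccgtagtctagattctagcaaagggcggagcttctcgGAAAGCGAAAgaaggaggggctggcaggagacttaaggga
The window of Tlr13 holds the PU.1 letters 83 bases before the start. That of Tlr2 holds overlapping κB matches that begin 173 and 172 bases before the start, and the RAR half-site on the opposite strand 15 bases before it. That of Myd88 holds the IRF letters 40 bases before the start. Over all 32851 promoter windows, 10.6% held the PU.1 motif, 7.25% the κB motif, 14.0% the RAR half-site and 2.98% the IRF motif. The C/EBP motif was in 9.56% and the AP-1 motif in 6.75%. Of the other entries, the first start of Tlr1 holds the PU.1 letters 23 bases before it. A start of Tlr6 holds overlapping IRF matches (116 and 110 bases) and a C/EBP match (89 bases), and Tlr8 a C/EBP match at 29 bases. A match is a description of letters, not a binding site.

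The untreated subsets were compared first, to describe how the receptors differ between them. TD had higher levels than PD for most of the genes: 7 of 10 were called higher and 0 lower, against 18.1% of the 14521 genes tested called higher and 17.3% lower, 35.4% together. The 7 were the surface receptors Tlr1, Tlr2, Tlr4 and Tlr6, the endosomal receptors Tlr7 and Tlr13, and Ly96. The median difference of the 10 was 2.19 on the log2 scale, against -0.13 over all genes tested. Tlr8 counts in this and the later medians of the 10, though it passed the filter only through the groups where it was highest. Its difference here was 2.22, with 1 TD array and 0 PD arrays above the dim-signal level. Of all calls 51.1% were higher as deposited, 39.5% after quantile normalization and 27.7% at a common 75th percentile, and the 7 genes were called higher under both scalings.

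Tlr13 differed most. Its arrays read 10.68 and 10.80 in TD, 5.51 and 5.73 in PD, and 6.24 and 6.61 in SC. The TD arrays stood far above those of SC and PD, and the PD arrays were the lowest of the 5 groups without overlap. TD exceeded PD by 5.12 ± 0.38 (SE), a 34.7-fold difference (limma adjusted p = 1.8e-05), and SC by 4.31 ± 0.38, a 19.8-fold difference (limma adjusted p = 4.4e-05).

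Among the lipopeptide receptors, Tlr2, the shared partner, read 11.83 and 11.73 in TD, 9.47 and 9.27 in SC, and 9.03 and 9.66 in PD. SC and PD overlapped, and both lay below TD. TD was higher than PD by 2.43 ± 0.36 (5.40-fold, limma adjusted p = 0.00049) and than SC by 2.41 ± 0.36 (5.31-fold, limma adjusted p = 0.0017), while PD and SC differed by -0.02 ± 0.36 (95% interval -0.81 to 0.76).

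The 2 partners of Tlr2 had the same order of group means, TD above SC above PD, but with PD further below SC. Tlr1 read 8.35 and 8.54 in TD, 8.05 and 7.88 in SC, and 6.24 and 6.80 in PD, so that PD stood apart on the low side. Tlr1 was lower in PD than in SC by -1.44 ± 0.34 (limma adjusted p = 0.0098) and higher in TD than in PD by 1.92 ± 0.34, while TD and SC differed by 0.48 ± 0.34 (adjusted p = 0.47). Tlr6 read 8.89 and 8.81 in TD, 8.17 and 7.72 in SC, and 6.73 and 7.73 in PD. Its SC and PD arrays overlapped. TD exceeded PD by 1.62 ± 0.33 (limma adjusted p = 0.0026), and the difference from SC, 0.91 ± 0.33, was not called (adjusted p = 0.12).

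The genes of LPS recognition did not move as 1 unit. Tlr4, the signalling receptor, read 9.99 and 10.10 in SC, 7.67 and 8.64 in PD, and 10.58 and 10.05 in TD. SC and TD overlapped, and PD was below both. Tlr4 was lower in PD than in SC by -1.89 ± 0.41 (limma adjusted p = 0.0063) and higher in TD than in PD by 2.16 ± 0.41 (4.46-fold, limma adjusted p = 0.0019), while TD and SC differed by 0.27 ± 0.41 (95% interval -0.64 to 1.17).

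Ly96, which holds LPS in the complex with Tlr4, read 9.06 and 9.11 in TD, 7.13 and 6.94 in SC, and 5.76 and 6.81 in PD. Both TD arrays lay above the rest. Ly96 was higher in TD than in PD by 2.81 ± 0.45 (6.99-fold, limma adjusted p = 0.00068) and than in SC by 2.05 ± 0.45 (4.14-fold, limma adjusted p = 0.016). Cd14, the LPS carrier on the membrane, read 11.45 and 11.38 in SC, 11.78 and 12.37 in PD, and 12.88 and 12.21 in TD. PD and TD overlapped, and SC was the lowest group. Cd14 was higher in TD than in SC by 1.13 ± 0.24 (2.19-fold, limma adjusted p = 0.013). The difference between PD and SC was 0.66 ± 0.24 (adjusted p = 0.060), opposite in sign to those of Tlr4 and Ly96. TD and PD differed in Cd14 by 0.47 ± 0.24 (95% interval -0.05 to 0.99, adjusted p = 0.15), a difference that limma called after quantile normalization (0.64, adjusted p = 0.035) and without TD replicate 2 (0.80, adjusted p = 0.041), while it was 0.019 at a common 75th percentile.

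Tlr7, the other endosomal receptor with a strong signal, read 10.90 and 11.05 in TD, 9.27 and 9.35 in SC, and 6.82 and 7.86 in PD. The 3 groups did not overlap. TD exceeded PD by 3.63 ± 0.42 (12.4-fold, limma adjusted p = 0.00017) and SC by 1.66 ± 0.42 (3.17-fold, limma adjusted p = 0.030), and PD lay below SC by -1.97 ± 0.42 (limma adjusted p = 0.0056). Its other probe sets gave a different account of PD: they differed between PD and SC by -0.07 and -0.24, while they too were higher in TD than in PD, by 1.78 and 1.85. With the mean of all Tlr7 probe sets the difference between PD and SC was -0.76 (adjusted p = 0.10).

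For Tlr4 the brighter probe sets ran together in the differences of PD from SC and TD. The 2 next brightest were lower in PD than in SC by -1.57 and -1.85, and higher in TD than in PD by 1.79 and 2.83. The dimmest exceeded the dim-signal level on 1 array and differed by 0.009 between TD and PD.

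**Figure D2:**
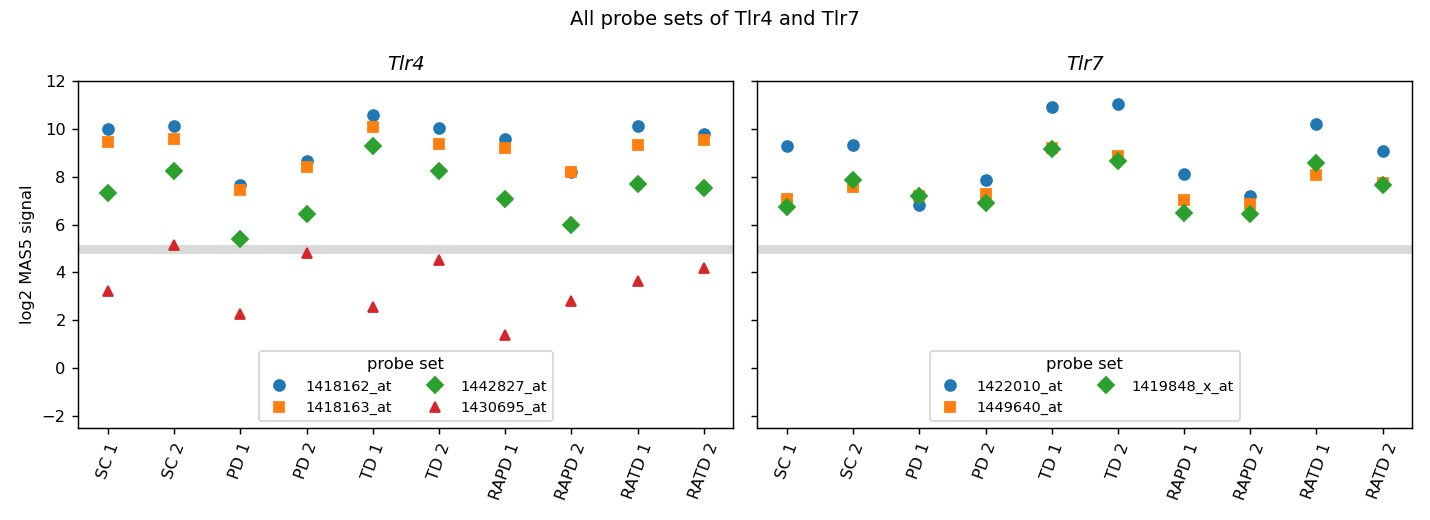
Log2 MAS5 signal (y) of every probe set of Tlr4 and Tlr7 on the 10 arrays (x, group and replicate). Each symbol is a probe set and the grey band spans the dim-signal levels. The 3 brighter Tlr4 probe sets are all lowest in PD among the untreated groups, while the 2 dimmer Tlr7 probe sets have similar values in SC and PD.

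Tlr8 was below the dim-signal level on 8 of the 10 arrays. It read 4.78 and 6.35 in TD, 4.24 and 2.46 in PD, and 2.70 and 2.04 in SC. Of these, 1 TD array exceeded the level, so no fold is given, and no contrast was called (adjusted p = 0.12 for TD against SC).

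Myd88, the adaptor that the receptors share, varied least. It read 10.96 and 10.89 in SC, 11.54 and 11.28 in PD, and 11.11 and 11.30 in TD. PD and TD overlapped and SC was the lowest group. TD and PD differed by -0.20 ± 0.18 (95% interval -0.60 to 0.20) and PD and SC by 0.48 ± 0.18 (adjusted p = 0.075). Scaled to a common 75th percentile, Myd88 was called lower in TD than in PD (-0.65, adjusted p = 0.023).

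PD and SC differed in fewer of the genes. In PD against SC 3 of 10 were called lower (Tlr1, Tlr4 and Tlr7) and 0 higher. That is near the 26.0% of the genes tested called in either direction, 15.3% lower and 10.7% higher. The median of the 10 was -0.74, against 0.20 over all genes. Of all calls 41.2% were higher as deposited, 54.0% after quantile normalization and 72.9% at a common 75th percentile, and Tlr1, Tlr4 and Tlr7 were called lower under both scalings. Without PD replicate 1 none of the 10 was called by limma (adjusted p = 0.10, 0.090 and 0.080 for Tlr1, Tlr4 and Tlr7), and without SC replicate 2 Tlr7 alone was. Without either RAPD array 5 were called, with Tlr13 lower and Myd88 higher in addition. With the untreated arrays fitted alone, a choice made after seeing the data, 6 were called: Tlr13 lower and Cd14 and Myd88 higher in addition.

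In TD against SC, 5 of 10 were called higher (Tlr2, Tlr7, Tlr13, Cd14 and Ly96) and 0 lower, against 4.97% of the genes tested called higher and 3.21% lower, 8.17% together. The median was 1.40, against -0.04 over all genes. Tlr8 counts in that median with a difference of 3.20, though 1 TD array and 0 SC arrays exceeded the dim-signal level. Tlr2 and Tlr13 were called under each of the 20 alternatives. Tlr7 and Ly96 lost the call without any 1 of the 4 SC and TD arrays (adjusted p = 0.137 to 0.175 and 0.0834 to 0.115). Cd14 lost it without either SC array or TD replicate 1 (adjusted p = 0.0838 to 0.136).

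**Figure D3:**
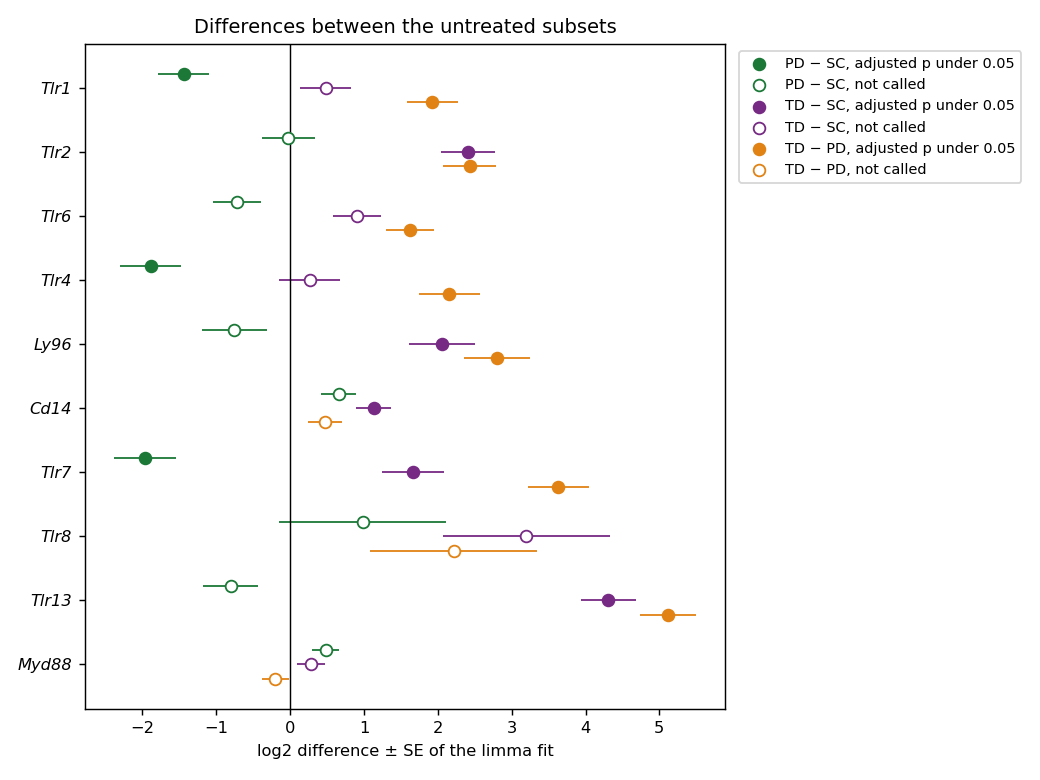
Log2 difference ± SE of the limma fit (x) of each gene (y) between the untreated subsets. Filled points passed an adjusted p of 0.05. The points of TD against PD lie between 1.62 and 5.12 for the 7 called genes, and those of Cd14 and Myd88, neither called, lie at 0.47 and -0.20.

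RNA signals differed with gene length between some groups. Over the 6322 bright genes with a length in RefSeq, the difference between TD and PD had a Spearman correlation of 0.447 with gene length, that between PD and SC one of -0.474, and that between TD and SC one of 0.116, where genes are not independent replicates. For the ATRA groups it was 0.383 in RAPD against PD, 0.371 in RATD against RAPD, -0.0755 in RATD against TD and -0.418 in the interaction of ATRA with subset. Of the 10 genes, Cd14 and Myd88 were short (1752 and 4085 bases, at the 3.17 and 11.4 percentiles of length), and the others were at the 16.2 (Tlr2) to 57.9 (Tlr7) percentiles. Its part in the results was not tested.

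The ATRA comparisons ask how the receptors differed after treatment within a subset. The late granulocyte markers, which differed between the untreated subsets too, summed to 133915 to 171208 in RAPD and 110697 to 164588 in RATD. Of the 7, 4 were called higher in RAPD than in PD and 2 higher in RATD than in TD, and their part in the results was not tested. The share of higher calls moved with the scaling too: as deposited, after quantile normalization and at a common 75th percentile it was 60.4%, 55.6% and 35.0% in RAPD against PD, 55.6%, 50.1% and 39.3% in RATD against RAPD, and 25.7%, 28.6% and 51.2% in the interaction. Tlr13 was the 1 gene of the 10 called in RAPD against PD, a share near the 8.08% of the genes tested called in all (4.88% higher and 3.20% lower). It read 8.24 and 6.91 in RAPD against 5.51 and 5.73 in PD. The groups did not overlap, though the RAPD arrays were far apart. Tlr13 was higher by 1.96 ± 0.38 (3.88-fold, limma adjusted p = 0.017), a call lost without PD replicate 1 (adjusted p = 0.13), PD replicate 2 (0.057) or RAPD replicate 1 (0.085).

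The other receptors had no call in RAPD. Tlr4 read 9.56 and 8.18 in RAPD, a wide spread that overlapped PD, and differed from PD by 0.72 ± 0.41 (adjusted p = 0.30). Without RAPD replicate 2, Tlr4 was called higher by 1.41 (limma adjusted p = 0.027). Tlr2 read 8.63 and 8.71 in RAPD, below both PD arrays, with a difference of -0.68 ± 0.36 (adjusted p = 0.26). The remaining genes lay between -1.25 (Tlr8, dim on all 4 arrays) and 0.52 (Tlr6), and Cd14 and Myd88 at 0.48 ± 0.24 and 0.31 ± 0.18.

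In RATD against TD, limma called 0 of the 10 genes, against 0.193% of the genes tested called higher, 0.0964% lower and 0.289% in all. At an unadjusted p under 0.05 there were 3, Tlr2, Tlr7 and Tlr13, against 1560 of the 14521 genes tested. Of the 10 differences 9 were below 0, with a median of -0.45, against -0.01 over all genes.

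What the arrays of the 3 had in common was found in other members too. Tlr2 read 11.04 and 9.66 in RATD against 11.83 and 11.73 in TD (-1.43 ± 0.36, adjusted p = 0.14). Tlr7 read 10.22 and 9.08 in RATD (-1.33 ± 0.42, adjusted p = 0.26), and Tlr13 9.83 and 9.41 (-1.12 ± 0.38, adjusted p = 0.31). All the RATD arrays lay below both TD arrays, as those of Tlr6 did, and RATD replicate 2 lay below replicate 1 in each. In every other member but Myd88, RATD replicate 2 was the lower array too. The shares of all genes tested with these traits were not counted, so the traits only describe the arrays. Without RATD replicate 1, limma called Tlr2 (-2.12, adjusted p = 0.0013) and Tlr7 (-1.90, adjusted p = 0.027) lower.

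Others differed less. Tlr4 read 10.11 and 9.79 in RATD and Tlr1 8.37 and 7.58, with ranges that overlapped those of TD. The next brightest Tlr4 probe sets differed between RATD and TD by -0.30, with overlap, and by -1.15, without overlap of the arrays. Ly96 read 9.13 and 8.17, which overlapped TD, and Tlr6 8.44 and 8.21, below both TD arrays (8.89 and 8.81). Cd14 read 12.27 and 12.10 and Myd88 11.22 and 11.53, with differences of -0.36 (95% interval -0.88 to 0.16) and 0.17 (95% interval -0.24 to 0.57).

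After ATRA the TD subset was still above the PD subset for part of the genes. In RATD against RAPD 4 of 10 were called higher and 0 lower, against 2.67% of the genes tested called higher, 2.13% lower and 4.81% in all. They were Ly96 (2.43 ± 0.45, 5.38-fold, limma adjusted p = 0.017), Tlr13 (2.04 ± 0.38, 4.12-fold, limma adjusted p = 0.017), Tlr7 (2.01 ± 0.42, 4.01-fold, limma adjusted p = 0.026) and Tlr2 (1.68 ± 0.36, 3.21-fold, limma adjusted p = 0.029). Tlr1 (1.21 ± 0.34, adjusted p = 0.064), Tlr4 (1.08 ± 0.41, adjusted p = 0.14) and Tlr6 (0.57 ± 0.33, adjusted p = 0.32) did not pass. By limma, 0 of the 10 were called without RAPD replicate 2 or RATD replicate 1, or with the 4 arrays fitted alone. Without any 1 of the SC or TD arrays it called 2 (Ly96 and Tlr13), and without RAPD replicate 1 it called 6, with Tlr1 and Tlr4 in addition.

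The difference between the ATRA differences of TD and PD was tested as an interaction. Tlr13 was the 1 gene called, at -3.07 ± 0.54 (limma adjusted p = 0.046), against 0.0620% of the genes tested called higher, 0.179% lower and 0.241% in all. It was higher in RAPD than in PD and lower on both RATD arrays than on the TD arrays. At an unadjusted p under 0.05 there were 3 others: Tlr7 (-1.63 ± 0.59, adjusted p = 0.25), Tlr6 (-1.05 ± 0.46, adjusted p = 0.32) and Cd14 (-0.84 ± 0.33, adjusted p = 0.28). With Tlr13 that is 4 of the 10, where 2173 of the 14521 genes tested had such a p. The Tlr13 call was lost under 13 of 19 alternatives (adjusted p = 0.0030 to 0.28 over the 19), among them leaving out any of 8 of the 10 arrays.

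**Figure D4:**
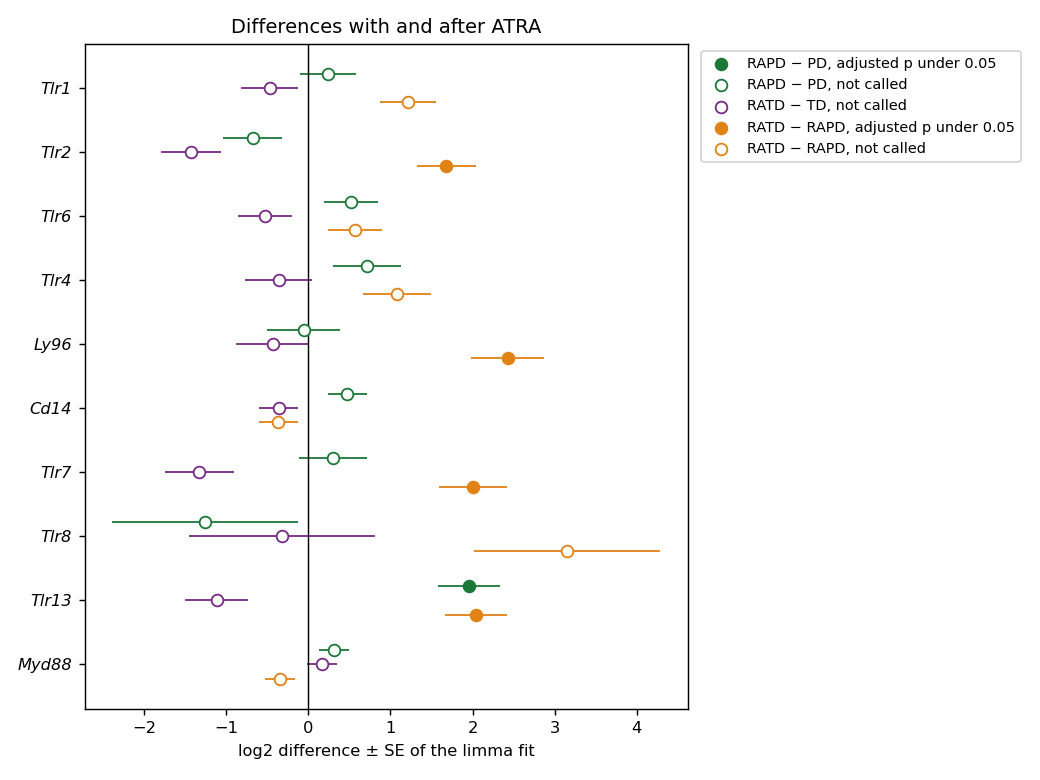
Log2 difference ± SE of the limma fit (x) of each gene (y) for ATRA within the PD subset, ATRA within the TD subset, and TD against PD after ATRA. Filled points passed an adjusted p of 0.05. Tlr13 is at 1.96 in the PD subset and at -1.12 in the TD subset.

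Across the 10 arrays, receptors resembled each other more than they resembled the adaptor. The Pearson correlation of log2 values was 0.98 for Tlr1 and Tlr7, 0.94 for Ly96 and Tlr7, 0.93 for Tlr1 and Tlr4, and 0.62 for Tlr2 and Tlr4. Over the pairs of receptors it ran down to 0.32, for Tlr4 and Tlr8, and Tlr8 had 0.52 with Tlr6 and 0.54 with Tlr1. Myd88 had a negative correlation with each of the other members but Cd14 (0.49), down to -0.68 with Tlr1. The 10 points come from 5 groups and share each array's scaling, so these are descriptions. Among all genes tested, those most like a member over the 10 arrays were Bicd2 and the C-type lectin gene Clec4n for Tlr2 (0.993 and 0.990), the transcription factor gene Maf and Nrp1 for Tlr13 (0.989 and 0.988), Rufy3 and Btaf1 for Tlr4 (both near 0.99), and Ggh, encoding a folate hydrolase, for both Tlr1 (0.992) and Tlr7 (0.989). For Ly96 they included Mpeg1 (0.982), a macrophage gene, and the chemokine receptor gene Ccr2 (0.978), and for Myd88 the adaptor gene Grb2 (0.974).

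The rest of the pathway was described from 6 lists, of which 69 of 81 genes were tested. Cd36, Acod1 and Il12b count among them, though they passed the filter only through the groups where they were highest. In TD against PD 26 rose and 4 fell, where the shares over all genes were 18.1% and 17.3%. The median of the lists was 0.49, against -0.13 over all genes. In TD against SC 20 rose and 1 fell, where the shares over all genes were 4.97% and 3.21%, and the median was 0.43 against -0.04. In PD against SC 7 rose and 13 fell, with a median of 0.10 against 0.20, and the shares over all genes, 10.7% higher and 15.3% lower, were close to those of the lists. In RAPD against PD 13 rose and 3 fell (4.88% and 3.20% over all genes), in RATD against TD 1 rose and 1 fell (0.193% and 0.0964%), and in RATD against RAPD 8 rose and 0 fell (2.67% and 2.13%).

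Of the other Toll-like receptors, Tlr5, Tlr9 and Tlr12 were tested. Tlr5, the receptor for flagellin, read 7.12 and 7.50 in TD, 4.95 and 4.62 in SC, and 5.35 and 4.73 in PD. The TD arrays stood apart, while SC and PD had 1 of 2 arrays above the dim-signal level. It rose in TD against SC by 2.52 ± 0.53 (limma adjusted p = 0.013) and against PD by 2.27 ± 0.53 (limma adjusted p = 0.0061). Tlr9, the receptor for CpG DNA, exceeded the dim-signal level on 1 PD array and both SC and TD arrays, and neither it nor Tlr12 was called in any contrast.

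Partners of the receptors included both directions. Unc93b1, the chaperone that carries endosomal receptors to their compartment, rose in TD against SC by 1.85 ± 0.21 (limma adjusted p = 0.00029) and against PD by 1.43 ± 0.21, and in RAPD against PD by 1.04 ± 0.21. Lbp, the LPS-binding protein of plasma, fell in TD against SC (-1.57 ± 0.36) and against PD (-1.48 ± 0.36), and rose in RATD against TD by 2.15 ± 0.36 (limma adjusted p = 0.034). Ly86, the partner of the receptor homologue Cd180, was at least 4.84-fold higher in TD than in SC, where it was dim. Of the 11 genes tested here, 3 rose and 1 fell in TD against PD, a share near the 35.4% called over all genes, with a median of 0.32. The 3 include Cd36, which exceeded the dim-signal level on the TD and RATD arrays alone.

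Of 17 signalling kinases, their partners and ubiquitin ligases, 8 rose and 0 fell in TD against PD, where 18.1% of all genes were called higher and 17.3% lower (median 0.61). In PD against SC 1 rose and 7 fell, where the shares over all genes were 10.7% and 15.3% (median -0.27). Map3k8, the kinase Tpl2 that activates the ERK pathway, rose in TD against PD by 3.10 ± 0.27, and so did Peli1, a ubiquitin ligase acting on the IRAK complex (1.77 ± 0.22), and Tbk1, a kinase of IRF3 (2.04 ± 0.29). In PD against SC Tbk1 fell (-2.13 ± 0.29), and so did Tab3, a partner of the kinase TAK1 (-2.38 ± 0.45). Irak2, a kinase of the Myd88 complex, rose in TD against SC by 1.89 ± 0.23 (limma adjusted p = 0.00041). In RAPD against PD 7 of the 17 rose and 0 fell, where 4.88% of all genes were called higher and 3.20% lower, with Tbk1 at 1.71 ± 0.29.

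Among 8 transcription factors, 4 rose and 0 fell in TD against SC, where 4.97% of all genes were called higher and 3.21% lower. In TD against PD 3 rose and 1 fell (Irf3, a factor of interferon genes, at -0.53 ± 0.16), where the shares over all genes were 18.1% and 17.3%. Irf5, which acts below Myd88, read 9.29 and 9.55 in TD, 5.73 and 5.77 in SC, and 6.16 and 5.99 in PD. It rose by 3.67 ± 0.31 against SC (limma adjusted p = 3.1e-05), by 3.35 ± 0.31 against PD, and by 3.36 ± 0.31 in RATD against RAPD (limma adjusted p = 0.00043). Irf7, a regulator of type I interferon genes, rose against SC by 2.74 ± 0.38, and Relb, an NF-κB subunit, by 1.52 ± 0.30.

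Of 14 genes listed as inhibitors of the pathway, though not all need act as such, 4 rose and 2 fell in TD against PD. That was near the shares of 18.1% and 17.3% over all genes, with a median of 0.02. Nfkbiz, encoding the nuclear regulator IκBζ, rose by 3.59 ± 0.34 and the ubiquitin-editing enzyme gene Tnfaip3 (A20) by 1.75 ± 0.21, and Atf3, a repressor of cytokine genes, was at least 20.0-fold higher. In PD against SC, Nfkbiz (-2.30 ± 0.34), Cyld, a deubiquitinase (-2.41 ± 0.44), and Tnfaip3 (-0.998 ± 0.214) fell.

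Of 16 response genes, 7 rose and 0 fell in TD against PD, where 18.1% of all genes were called higher and 17.3% lower (median 1.13). In TD against SC 6 rose and 0 fell, where the shares over all genes were 4.97% and 3.21% (median 1.21). Acod1 counts in both medians, though it exceeded the dim-signal level only on TD replicate 1 and RATD replicate 2. So does Il12b, which exceeded it only in PD. Tnf read 9.38 and 9.10 in TD, 7.11 and 7.16 in SC, and 7.40 and 7.68 in PD, and rose against SC by 2.10 ± 0.25 (limma adjusted p = 0.00034). The chemokine gene Ccl3 rose against PD by 2.80 ± 0.33, and Ccl2 was at least 25.0-fold and the cyclooxygenase gene Ptgs2 at least 22.2-fold higher than in PD. Ptgs2 read 9.8 and 8.9 in TD, 8.4 and 8.7 in SC, and 0.6 and 3.0 in PD, so PD stood apart on the low side. In RATD against TD Ccl3 fell (-2.37 ± 0.33, limma adjusted p = 0.017). Il1rn, the interleukin-1 receptor antagonist, rose in RAPD against PD by 3.59 ± 0.40 (limma adjusted p = 0.0011), while the serum amyloid gene Saa3 fell (-2.17 ± 0.52). Il1a, Il6, Il10, Nos2 and Marco did not pass the filter on dim signals.

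**Figure D5:**
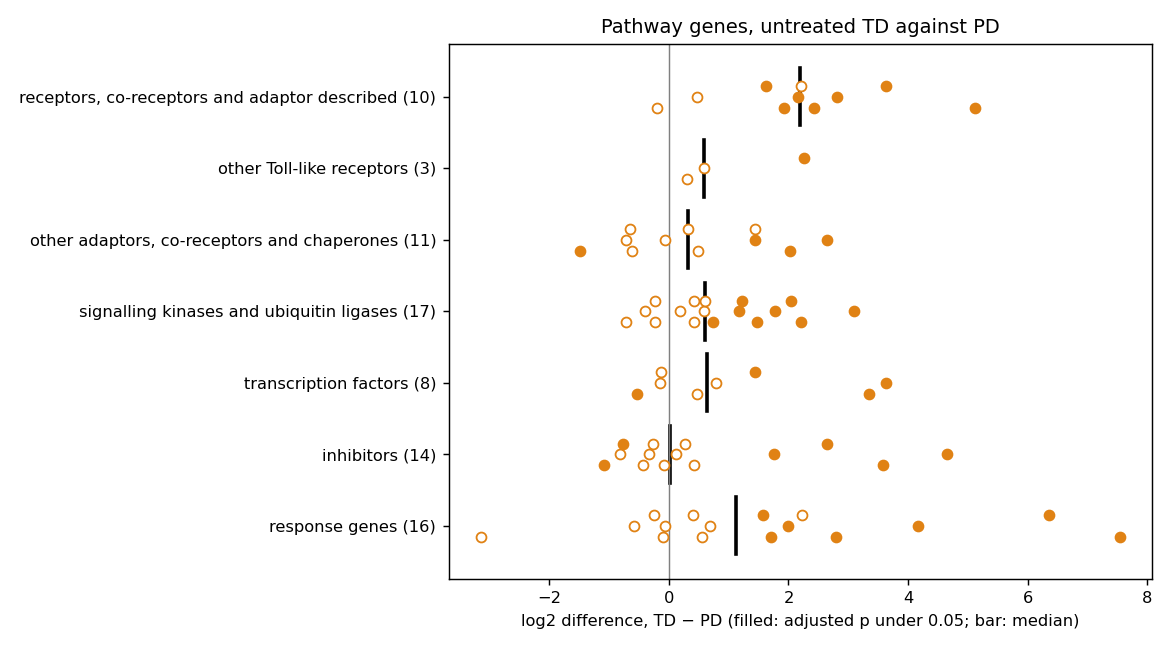
Log2 difference between untreated TD and PD (x) of each gene of the receptor group and of the 6 pathway lists (y, number of genes tested). Filled points passed an adjusted p of 0.05 and black bars are medians. The receptor group, with the dim gene Tlr8 counted, has its median at 2.19. The response genes, with the dim genes Acod1 and Il12b counted, have theirs at 1.13, while the listed inhibitors are centred at 0.02.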

How the data were processed

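The values are log2 MAS5 signals deposited by the authors, 45037 probe sets on each of 10 arrays. MAS5, an Affymetrix summary with scaling per array, is named in the submitters' processing notes, without a version. That the scale is log2 was judged from the values: trimmed of the extreme 2% at both ends, the mean linear signal of an array was 496.3 to 497.0. The platform annotation gave 1 symbol to 34945 probe sets, several to 932 and none to 9160, and the brightest probe set stood for a gene.

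Genes above the 40th percentile on at least 2 arrays entered a linear model (limma 3.58.1, R 4.3.3; 5 group means, intensity trend, 5 residual and 6.57 prior degrees of freedom). Tests were two-sided, adjusted by Benjamini-Hochberg over 14521 genes, and called under 0.05. For a gene dim on both arrays of a group, folds are lower bounds against the mean dim-signal level of that group. The fit was tested on simulated data. The number of arrays limits the precision. The members and lists were chosen with earlier results of these data known. All members were named, with up to 3 called genes of smallest p per list and contrast and the 3 genes most like each member; not all of these are printed. Scaling, filters, the model, the probe set rule and each array were varied as alternatives.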

Additional observations from a re-analysis of the deposited data

Results flagged for a closer look

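Tlr13 was the 1 gene of the 10 whose ATRA difference differed between the subsets by the interaction test. The difference in TD minus that in PD was -3.07 ± 0.54 (limma adjusted p = 0.046). Its arrays read 8.24 and 6.91 in RAPD against 5.51 and 5.73 in PD, and 9.83 and 9.41 in RATD against 10.68 and 10.80 in TD. The monocyte and macrophage markers summed to 3269 to 4740 in RAPD and 5194 to 6213 in PD, and to 16912 to 36180 in RATD and 40061 to 48643 in TD. The linear sum weighs the brightest markers most, and single markers went both ways. Csf1r was at 10.17 in RAPD and 11.68 in PD, and Irf8 at 7.62 and 6.30. Of the 12 markers, 1 was called higher and 2 lower in RAPD than in PD. In RATD against TD 0 were called higher and 1 lower. The part of these markers in the result was not tested.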

How the results depend on the processing

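Each of the 70 member differences was recomputed under up to 20 alternatives. Of 21 called, 9 kept call and direction under each of them (Tlr2 and Tlr13 in TD against SC, and the 7 in TD against PD), and 0 turned. The genes called in PD against SC numbered 3, or 5 at a common 75th percentile, 6 with array weights, 5 with the 4 arrays alone and 6 with the untreated arrays alone (added after seeing the data). Without the eBayes trend 2 were called in TD against SC, 0 in RAPD against PD, 0 in RATD against RAPD and 0 in the interaction. In RATD against RAPD 1 was called with array weights and 0 with the 4 arrays alone. The interaction count was 0 with no filter, with dim values raised, with its groups alone and with the replicate block. Leaving out 1 array at a time gave 0 to 5 in PD against SC, 2 to 5 in TD against SC, 7 to 8 in TD against PD, 0 to 2 in RAPD against PD, 0 to 2 in RATD against TD, 0 to 6 in RATD against RAPD and 0 to 2 in the interaction. In a group left with 1 array, that array is assumed to vary like the other groups. The cause of these changes was not tested.

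Arrays of like replicate number did not vary together: correlations of their deviations from group means ran from -0.501 (PD with RAPD) to 0.0995 (SC with PD). At -0.501, PD replicate 1 varied with RAPD replicate 2, and PD replicate 2 with RAPD replicate 1. The part of this in RAPD against PD and in the interaction was not tested. With the replicate block the counts were 3, 5, 7, 1, 0 and 4 in the 6 comparisons, and 0 in the interaction (Tlr13 adjusted p = 0.069).

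Of the uncalled differences, 10 turned in direction. After quantile normalization and at a common 75th percentile, Tlr2 in PD against SC was at 0.29 and 0.38. With the mean of all probe sets Tlr7 in RAPD against PD was at -0.20. With dim values raised Tlr8 was at 0.10 in RAPD against PD and at -0.52 in the interaction. At a common 75th percentile Myd88 in the interaction was at 0.13. Leaving out 1 array at a time gave -0.34 to 0.29 for Tlr2 in PD against SC. In RAPD against PD it gave -0.041 to 0.52 for Tlr1, -0.58 to 0.47 for Ly96 and -0.22 to 0.82 for Tlr7. In RATD against TD it gave -0.91 to 0.047 for Ly96 and -1.10 to 0.47 for Tlr8, and in the interaction -0.90 to 0.15 for Ly96 and -0.30 to 0.0067 for Myd88.

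The median difference over all genes was 0.20, 0.31 and 0.60 in PD against SC and -0.13, -0.33 and -0.58 in TD against PD as deposited, after quantile normalization and at a common 75th percentile. Over all genes, leaving out 1 array gave 1192 to 4408 calls in PD against SC (3776 as fitted), 398 to 1646 in TD against SC (1187), 2987 to 5595 in TD against PD (5145), 74 to 2560 in RAPD against PD (1174), 1 to 860 in RATD against TD (42), 87 to 2458 in RATD against RAPD (698) and 3 to 1375 in the interaction (35). At a common 75th percentile the calls were 6057 in PD against SC, 1852 in RAPD against PD, 117 in RATD against TD (75 after quantile normalization), 1128 in RATD against RAPD and 82 in the interaction. Without the eBayes trend they were 2330 in PD against SC, 574 in TD against SC, 30 in RAPD against PD, 1 in RATD against TD, 28 in RATD against RAPD and 4 in the interaction. In TD against SC they were 2929 with array weights, 3291 with its 4 arrays and 2659 with the untreated arrays. With no filter and with dim values raised they were 25 and 26 in RATD against TD and 14 and 11 in the interaction. In RATD against RAPD they were 144 with array weights, 58 with its 4 arrays, 372 with the replicate block and 443 with the mean of all probe sets. With only the groups compared they were 0 in RATD against TD and 13 in the interaction, which had 20 with the replicate block.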
